A study of Mus musculus with 6 samples.

Results

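The serine/arginine-rich (SR) splicing factor genes *Srsf1*, *Srsf2*, *Srsf3*, *Srsf4*, *Srsf5*, *Srsf6*, *Srsf7*, *Srsf10*, *Srsf11* and *Tra2a* were examined transcript by transcript in leukemic blasts with and without *Tet2*. They were taken by symbol from the GENCODE M21 annotation of GRCm38, and they are 10 of 53458 annotated genes in the files. Their 78 transcripts are part of 136176, and all 10 genes and 70 of the 78 transcripts passed the filter on low counts that left 22170 genes and 66893 transcripts. Of the 78 transcripts, 5 were listed at 0 in every library.

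RNA was sequenced from acute myeloid leukemia (AML) blasts of the bone marrow of C57BL/6 mice, 3 a genotype, in 3 Cebpa-/p30 Tet2+/+ libraries (s19, s23 and s24) and 3 Cebpa-/p30 Tet2-/- libraries (s5, s7 and s8). Both groups carry one *Cebpa* allele that makes only the short p30 isoform and a second allele that was deleted, so by their labels they differ in *Tet2*, which encodes a DNA demethylase. Per the study's methods, marrow with floxed alleles and *Mx1-Cre* was grown in irradiated female C57BL/6J.SJL recipients, Cre was induced with Poly(I)-Poly(C), and live donor-derived cells lacking T, B and erythroid surface markers were sorted from thawed marrow of moribund mice. The *Mx1* promoter acts in many hematopoietic cells and outside them, and recipients also keep some cells of their own, which the sort for donor cells was meant to remove. The comparison asks whether loss of *Tet2* goes with another level or another isoform makeup of these splicing factors.

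SR proteins bind exonic enhancer sequences through RNA recognition motifs and recruit the U1 and U2 splicing machinery through a domain rich in arginine and serine repeats, which the SRPK and CLK kinases phosphorylate. Many SR genes limit their own output. Their protein promotes inclusion of a poison exon with a premature stop codon, or retention of an intron, in its own transcript, and such RNA is degraded by nonsense-mediated decay or held in the nucleus. The share of a gene's RNA in retained-intron and nonsense-mediated-decay transcripts is therefore a usual readout of SR protein regulation, and mutated splicing factors, *SRSF2* among them, are common in myeloid neoplasms.

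In 5 of the genes, a nonsense-mediated-decay transcript with its own stop-bearing exon held at least 5% of the gene's TPM on average, TPM being the abundance per effective length, scaled to one total in every library. The part of each such exon up to its stop codon is shown because the inclusion of these exons is measured further on. Each is read 5′ to 3′ in the sense of the gene from the GENCODE M21 transcripts of GRCm38, with the premature stop codon in capitals, and the main coding transcript of the gene lacks that stop codon.
*Srsf3*, chr17:29039454-29039487, plus strand: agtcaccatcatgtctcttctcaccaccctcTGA
*Srsf4*, chr4:131884295-131884390, plus strand: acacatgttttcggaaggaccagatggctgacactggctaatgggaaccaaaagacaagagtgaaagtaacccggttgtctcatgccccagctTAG
*Srsf6*, chr2:162932815-162932966, plus strand: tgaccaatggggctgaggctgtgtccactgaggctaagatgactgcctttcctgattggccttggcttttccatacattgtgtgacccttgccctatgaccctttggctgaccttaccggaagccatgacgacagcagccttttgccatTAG
*Srsf11*, chr3:158024209-158024231, minus strand: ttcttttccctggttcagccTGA
*Tra2a*, chr6:49252965-49253108, minus strand: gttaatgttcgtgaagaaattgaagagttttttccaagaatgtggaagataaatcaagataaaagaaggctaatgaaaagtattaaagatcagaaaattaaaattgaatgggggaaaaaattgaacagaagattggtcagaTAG
The whole exons are 456, 188, 268, 109 and 306 bases long in this order. That of *Srsf4* is the first exon of its transcript Srsf4-204 as annotated, so its 5′ end is the start of that transcript model. The stop codon is TGA in *Srsf3* and *Srsf11* and TAG in *Srsf4*, *Srsf6* and *Tra2a*.

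The libraries held between 13036643 and 32855343 estimated reads, the largest being s5. The *Tet2* gene itself was at 73.6, 79.5 and 98.4 library-size-scaled counts (CPM) in the Tet2+/+ libraries and at 111, 79.4 and 96.7 CPM in the Tet2-/- libraries (log2 fold change 0.19 ± 0.19 SE, edgeR adjusted p = 0.842), so its gene-level value did not check the labels, and the sources used here do not say which exons the floxed allele loses. All 8 listed markers of myeloid progenitor blasts were present, with a summed level of 3417 to 3721 TPM in Tet2+/+ and 3190 to 3987 TPM in Tet2-/-. Within that sum *Mpo* was lower in every Tet2-/- library (850 to 1025 TPM) than in every Tet2+/+ library (1426 to 1496 TPM). *Ms4a3* was higher in every one (226 to 256 against 120 to 196 TPM), and the others overlapped. The 6 mature neutrophil markers summed to 19404 to 90465 TPM in Tet2+/+ and 41003 to 177124 TPM in Tet2-/-, with s7 the highest, and all 6 were present. The 4 monocyte markers summed to 1538 to 2248 TPM in Tet2+/+ and 2665 to 3743 TPM in Tet2-/-, which do not overlap, and *Ly6c2* made up most of that sum. The others, *Csf1r*, *Ccr2* and *Irf8*, each overlapped between genotypes. The B cell markers summed to at most 40.4 TPM, the T and NK cell markers to at most 28 TPM, and 5 erythroid markers to at most 38.2 TPM outside s19, where they summed to 351 TPM, while *Klf1*, a transcription factor of erythroid cells, was between 0 and 0.367 TPM.

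The SR genes were strongly expressed in all 6 libraries, and none passed the gene-level test between genotypes. Averaged over the 6 libraries, gene TPM ran from 323 ± 33.3 (SD) for *Srsf3* through 259 ± 29.3 for *Srsf2*, 217 ± 22.0 for *Srsf5*, 127 ± 19.6 for *Srsf1*, 94.9 ± 20.5 for *Srsf11*, 63.6 ± 18.0 for *Srsf6*, 59.5 ± 8.17 for *Srsf7*, 59.3 ± 9.47 for *Srsf10* and 36.9 ± 2.28 for *Tra2a* to 25.9 ± 2.33 for *Srsf4*. In this order *Srsf5* and *Srsf1*, *Srsf10* and *Tra2a*, and *Tra2a* and *Srsf4* had ranges that do not overlap. The other neighbors overlapped, and *Srsf7* was above *Srsf10* in just 2 of the 6 libraries.

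**Figure D1:**
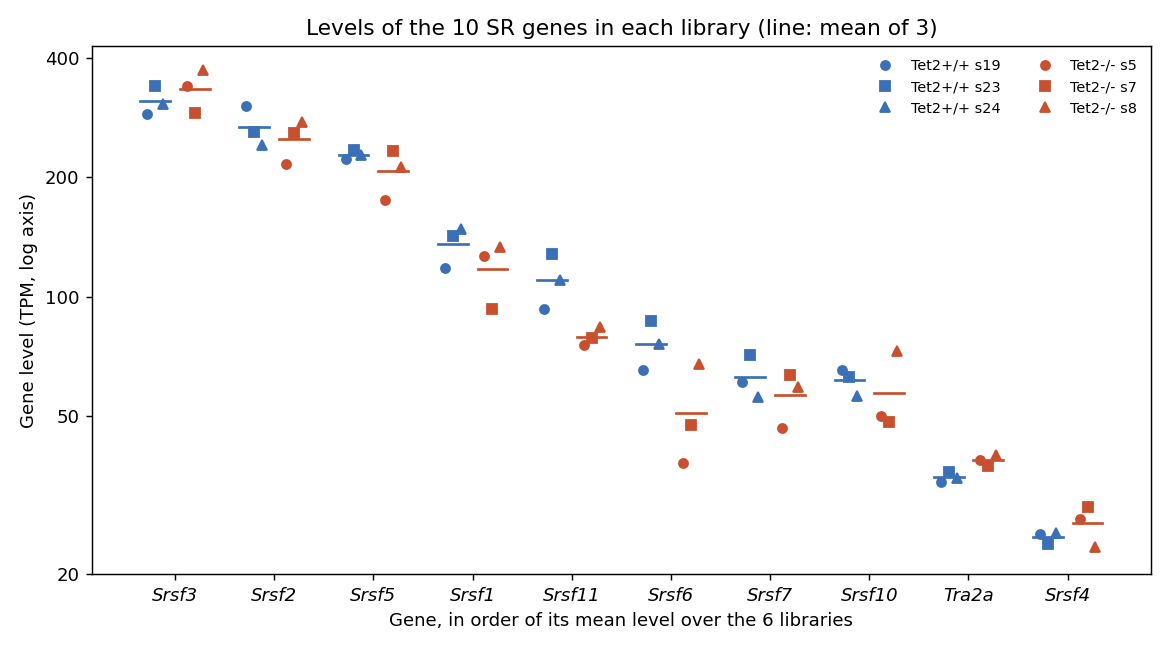
Gene level in TPM on a log axis for the 10 SR genes, 1 point per library, with blue for Tet2+/+, red for Tet2-/- and a line at each mean of 3. The Tet2-/- points of *Srsf11* (75.4 to 83.8 TPM) all lie below the Tet2+/+ points (93.1 to 128 TPM), those of *Tra2a* all lie above, and the points of the other 8 genes overlap.

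Across all genes, edgeR's quasi-likelihood test called 10 of 22170 (0.0451%), all lower in Tet2-/- libraries. Of the 10 SR genes it called 0, with 1 (*Srsf11*) at an unadjusted p under 0.05, where 5.12% of all genes were lower and 3% higher. DESeq2 called 385 genes (1.74%) and again 0 of the 10. In gene TPM, 1 of the 10 was lower in every Tet2-/- library than in every Tet2+/+ library and 1 was higher, against 8.33% and 4.79% of genes with a mean of at least 1 TPM. In these bulk libraries, fewer cells of a type and less RNA per cell cannot be told apart.

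*Srsf1*, the founding SR protein and a regulator of both constitutive and alternative splicing, was at 118 to 148 TPM in Tet2+/+ (136 ± 15.8, SD, n = 3) and at 93.2 to 134 TPM in Tet2-/- (118 ± 21.5, SD, n = 3). Its log2 fold change on counts was -0.06 ± 0.18 (SE; edgeR adjusted p = 0.964). A nearly constant part of its TPM lay in retained-intron transcripts in every library, at 49.1%, 52.0% and 48.4% in s19, s23 and s24 and at 48.8%, 48.6% and 49.7% in s5, s7 and s8. These shares varied little between libraries, and the genotypes overlap. Nearly all of that class is Srsf1-203, a 759-base transcript at 56.3, 69.7 and 67.3 TPM in Tet2+/+ and 60.1, 43.0 and 64.8 TPM in Tet2-/-.

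The protein-coding share of *Srsf1* was 39.6%, 38.8% and 35.1% in Tet2+/+ and 40.8%, 43.6% and 42.8% in Tet2-/-, so every Tet2-/- library was above every Tet2+/+ library. The log2 ratio of coding to other TPM was higher by 0.28 ± 0.20 (SE; limma adjusted p = 0.84), and the exact two-sided permutation p of the share was 0.1, the smallest that 3 against 3 libraries can give. The nonsense-mediated-decay transcript Srsf1-204 was at 13.2, 13.1 and 16.3 TPM in Tet2+/+ and 9.63, 7.26 and 10.0 TPM in Tet2-/-. Its groups do not overlap, with a log2 fold change of -0.58 ± 0.23 (SE; edgeR unadjusted p = 0.045, adjusted p = 0.846). The main coding transcript Srsf1-201 did not share this pattern, with a log2 fold change of 0.03 ± 0.20 (SE), while the coding Srsf1-205 was at 11.8, 12.1 and 14.1 TPM against 11.3, 9.08 and 11.4 TPM, which do not overlap (log2 fold change -0.19 ± 0.17 SE, edgeR adjusted p = 0.967).

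*Srsf2*, the enhancer-binding protein also known as SC35, had a gene-level log2 fold change of 0.01 ± 0.21 (SE; edgeR adjusted p = 0.997), with 241 to 302 TPM in Tet2+/+ and 216 to 276 TPM in Tet2-/-. Its TPM was divided between the coding Srsf2-201 (41.2% on average), the nonsense-mediated-decay transcript Srsf2-204 (37.6%) and the retained-intron transcript Srsf2-203 (20.6%). The retained-intron share was 19.9%, 20.7% and 20.3% in Tet2+/+ and 17.9%, 28.6% and 16.2% in Tet2-/-. The high value is s7, the library with the most neutrophil marker RNA, whose part in the value was not tested. Without s7 the log2 ratio went from 0.01 to -0.31 (limma adjusted p = 0.792).

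The nonsense-mediated-decay share of *Srsf2* was lowest in s7 as well, at 27.3% against 41.2% and 46.3% in s5 and s8 and 40.3%, 35.9% and 36.3% in the Tet2+/+ libraries. Of Srsf2-204, 72.6% overlaps exons of *Mettl23* on the opposite strand. The library kit does not mark strand, so reads of both genes cannot be told apart there. *Mettl23* was at 16.1 ± 1.46 TPM in Tet2+/+ and 18.7 ± 2.10 TPM in Tet2-/- (SD, n = 3).

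*Srsf3*, the smallest SR protein and one that couples splicing to mRNA export, was the most abundant of the 10 at 288 to 339 TPM in Tet2+/+ and 291 to 373 TPM in Tet2-/- (log2 fold change 0.08 ± 0.17 SE, edgeR adjusted p = 0.931). Its protein-coding share was just 3.53%, 3.32% and 2.74% in Tet2+/+ and 5.32%, 1.47% and 3.11% in Tet2-/-. Between 76.2% and 79.8% of its TPM was assigned to 3 short processed transcripts, which GENCODE lists without a reading frame. The largest of them, the 319-base Srsf3-208, was at 121, 139.8 and 152 TPM in Tet2+/+ and at 176, 148 and 192 TPM in Tet2-/-. Its groups overlap in TPM, and as a share of the gene it was 44.3 ± 4.60% in Tet2+/+ and 51.4 ± 0.622% in Tet2-/- (SD, n = 3), which do not overlap (log2 fold change of the transcript 0.42 ± 0.18 SE, edgeR adjusted p = 0.846). Of Srsf3-208, 69.6% matches the processed copy *Gm9761* at up to 99.6% identity, and *Gm9761* was itself listed at 43.2 ± 2.73 TPM in Tet2+/+ and 49.7 ± 6.98 TPM in Tet2-/- (SD, n = 3), so the division of reads between them is uncertain. TPM divides reads by effective length, so short transcripts weigh more in TPM than in reads. Of the gene's 5897, 6341 and 4309 estimated reads in Tet2+/+, Srsf3-208 held 317, 349 and 289 and the coding Srsf3-202 held 637, 696 and 404. In Tet2-/-, Srsf3-208 held 879, 353 and 519 and Srsf3-202 held 2132, 248 and 757, of 11234, 5133 and 6747.

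The retained-intron share of *Srsf3* was 11.9%, 11.6% and 12.5% in Tet2+/+ and 7.91%, 11.7% and 9.61% in Tet2-/-. Libraries s5 and s8 were below all Tet2+/+ libraries and s7 lay among them (log2 ratio -0.35 ± 0.24 SE, limma adjusted p = 0.774). The log2 ratio was -0.20 without s5, -0.51 without s7 and -0.15 without transcripts under 500 bases. The nonsense-mediated-decay transcript Srsf3-201, which carries the stop codon shown above, was at 24.1, 22.6 and 21.1 TPM in Tet2+/+ and 24.6, 24.8 and 28.0 TPM in Tet2-/- (log2 fold change 0.25 ± 0.16 SE, edgeR adjusted p = 0.865). It was the one SR transcript with a mean of at least 1 TPM that was higher in every Tet2-/- library. The retained-intron Srsf3-205 (6.78% of the gene on average, log2 fold change -0.20 ± 0.18 SE) and the processed Srsf3-207 (20.3%, -0.04 ± 0.20 SE) and Srsf3-209 (10.2%, -0.20 ± 0.24 SE) all overlapped in TPM. As shares of the gene, Srsf3-205 (7.63 ± 0.982% against 5.93 ± 0.691%) and Srsf3-209 (11.6 ± 1.34% against 8.73 ± 1.11%; SD, n = 3) were lower in every Tet2-/- library. The share of Srsf3-207 overlapped.

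*Srsf4*, a large SR protein with a long arginine/serine domain, was the least abundant of the 10, at 23.9 to 25.5 TPM in Tet2+/+ and 23.5 to 29.6 TPM in Tet2-/- (log2 fold change 0.31 ± 0.18 SE, edgeR adjusted p = 0.698). Its protein-coding share was 66.5%, 66.7% and 55.5% in Tet2+/+ and 73.5%, 63.9% and 68.8% in Tet2-/-. That is the highest coding share among the SR genes with more than 1 class in the files. Its retained-intron share was low, at 6.08 ± 0.734% in Tet2+/+ and 5.14 ± 0.706% in Tet2-/- (SD, n = 3). The nonsense-mediated-decay transcripts Srsf4-204 (21.6% of the gene on average, log2 fold change -0.16 ± 0.29 SE) and Srsf4-203 (7.02%, 0.32 ± 0.44 SE) and the retained-intron Srsf4-201 (5.61%, -0.03 ± 0.23 SE) overlapped between genotypes. The coding transcript Srsf4-202 shares 68% of its length with the opposite-strand gene *Gm12992*, which was listed at no more than 0.278 TPM in any library.

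*Srsf5*, an SR protein known as a target of insulin signaling, was at 222 to 234 TPM in Tet2+/+ and 175 to 233 TPM in Tet2-/- (log2 fold change -0.15 ± 0.18 SE, edgeR adjusted p = 0.865). The retained-intron share was 19.2%, 33.5% and 28.8% in Tet2+/+ and 21.1%, 17.5% and 24.1% in Tet2-/-. The Tet2+/+ libraries differed by more than the genotypes did, with s19 inside the Tet2-/- range (log2 ratio -0.47 ± 0.35 SE, limma adjusted p = 0.779). The log2 ratio was -0.78 without s19 and -0.24 without s23. Within the retained-intron class, the transcript with the highest TPM in every library was the 2720-base Srsf5-212, at 27.2, 67.7 and 55.8 TPM in Tet2+/+ and 33.6, 17.3 and 43.7 TPM in Tet2-/-. The coding transcript Srsf5-203 was listed at 35.7, 0 and 18.6 TPM in Tet2+/+ and at 13.0, 31.2 and 14.4 TPM in Tet2-/-. The 0 stands in s23, while s23 had the highest Srsf5-201 (48.3 TPM), another coding transcript of the gene. The coding Srsf5-202 (9.08% of the gene on average, log2 fold change 0.19 ± 0.23 SE) and the processed Srsf5-206 (18.6%, -0.15 ± 0.18 SE) and Srsf5-211 (15.7%, 0.35 ± 0.28 SE) overlapped as well.

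*Srsf6*, an SR protein formerly called SRp55, had the largest difference in level among the 10 on the log2 scale. Its gene level was 65.4, 86.9 and 75.9 TPM in Tet2+/+ and 38.1, 47.5 and 67.7 TPM in Tet2-/-, where s8 lay within the Tet2+/+ range and s5 and s7 below it. In CPM the groups do not overlap, at 305, 347 and 316 against 171, 215 and 299, which held for 6.91% of genes lower and 8.71% higher among those with a mean of at least 1 TPM. The fold was 0.708 (95% interval 0.482 to 1.04; edgeR unadjusted p = 0.071, adjusted p = 0.646), and the interval contains no difference.

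All 3 main transcripts of *Srsf6* had lower means in Tet2-/-. The coding Srsf6-203 was at 35.3, 41.7 and 37.5 TPM against 16.5, 23.2 and 34.4 TPM, which do not overlap (log2 fold change -0.56 ± 0.26 SE, edgeR adjusted p = 0.846). The retained-intron Srsf6-204 was at 7.29, 14.2 and 11.8 TPM against 4.46, 4.41 and 8.32 TPM (log2 fold change -0.85 ± 0.32 SE, unadjusted p = 0.0357, adjusted p = 0.846). The nonsense-mediated-decay transcript Srsf6-201, with the stop codon shown above, differed less, at 21.8, 27.3 and 26.3 TPM against 16.7, 19.2 and 24.7 TPM (log2 fold change -0.21 ± 0.17 SE). Its share of the gene was accordingly 33.3%, 31.4% and 34.6% in Tet2+/+ and 43.8%, 40.4% and 36.6% in Tet2-/-, higher in every Tet2-/- library (log2 ratio 0.44 ± 0.26 SE, limma adjusted p = 0.881, exact permutation p = 0.1). *Srsf6* is the 1 gene of 8 whose nonsense-mediated-decay share does not overlap, against 6.02% of all genes in that direction and 5.56% in the other.

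*Srsf7*, an SR protein with a zinc knuckle that also acts in mRNA export, was at 60.8, 71.3 and 55.8 TPM in Tet2+/+ and 46.7, 63.5 and 59.1 TPM in Tet2-/- (log2 fold change -0.08 ± 0.19 SE, edgeR adjusted p = 0.945). The annotation has 8 transcripts of *Srsf7*, of which the coding Srsf7-201 is the 1 in the files used here, so no class share was analysed for it.

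*Srsf10*, an SR-like protein that turns into a splicing repressor when dephosphorylated, was at 56.4 to 65.3 TPM in Tet2+/+ and 48.2 to 72.9 TPM in Tet2-/- (log2 fold change 0.12 ± 0.19 SE, edgeR adjusted p = 0.908). It has neither retained-intron nor nonsense-mediated-decay transcripts in the annotation, and its TPM was split between coding and processed transcripts. The coding share was 31.5%, 34.8% and 31.2% in Tet2+/+ and 41.7%, 38.9% and 35.0% in Tet2-/-, s8 and s23 being close. Every Tet2-/- library was above every Tet2+/+ library (log2 ratio 0.38 ± 0.22 SE, limma adjusted p = 0.82, exact permutation p = 0.1), and without transcripts under 500 bases the log2 ratio was 0.16. In TPM the genotypes overlapped for the coding Srsf10-204 (18.0% of the gene on average, log2 fold change 0.21 ± 0.26 SE), Srsf10-205 (7.46%, 0.14 ± 0.25 SE) and Srsf10-202 (6.33%, -0.28 ± 0.59 SE) and the processed Srsf10-207 (15.9%, -0.04 ± 0.33 SE). The largest processed transcript, the 394-base Srsf10-209, held 37.4% of the gene's TPM on average, and 77.9% of it matches *Gm5446* and *Gm9134*, which were listed at no more than 0.174 TPM in any library. In estimated reads Srsf10-209 held less, at 104, 117 and 92 of the gene's 2290, 2008 and 1464 in Tet2+/+. In Tet2-/- it held 152, 76 and 147 of 3895, 1673 and 2689.

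*Srsf11*, an SR-related protein also called p54, was the gene with the largest retained-intron share and the 1 member with an unadjusted gene-level p under 0.05. Its gene level was 93.1, 128 and 110.5 TPM in Tet2+/+ and 75.4, 78.7 and 83.8 TPM in Tet2-/-. Every Tet2-/- library was below every Tet2+/+ library, and the Tet2-/- values varied less (SD 4.26 against 17.4 TPM, n = 3 each). The fold was 0.747 (95% interval 0.567 to 0.983; log2 fold change -0.42 ± 0.17 SE, edgeR unadjusted p = 0.0404, adjusted p = 0.604, DESeq2 adjusted p = 0.334). The summed monocyte markers, mostly *Ly6c2*, did not overlap between genotypes either and were higher in Tet2-/-. Their part in this difference was not tested, nor in any other value given here whose genotypes do not overlap.

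In *Srsf11*, retained-intron TPM was lower in every Tet2-/- library, while coding TPM overlapped between genotypes. Retained-intron TPM was 58.5, 87.6 and 67.9 in Tet2+/+ and 38.7, 42.3 and 52.1 in Tet2-/-, while coding TPM was 18.5, 21.9 and 19.3 in Tet2+/+ and 20.4, 15.8 and 19.2 in Tet2-/-. As shares, retained-intron transcripts held 62.8%, 68.6% and 61.4% in Tet2+/+ and 51.4%, 53.7% and 62.1% in Tet2-/-, with s8 inside the Tet2+/+ range (log2 ratio -0.51 ± 0.27 SE, limma adjusted p = 0.745, exact permutation p = 0.2). Coding transcripts held 19.9%, 17.1% and 17.5% in Tet2+/+ and 27.1%, 20.1% and 22.9% in Tet2-/-, which do not overlap, although s7 and s19 were close (log2 ratio 0.45 ± 0.24 SE, limma adjusted p = 0.795).

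Among the 11 retained-intron transcripts of *Srsf11*, Srsf11-208 had the lowest p between genotypes. It was at 13.4, 20.6 and 15.5 TPM in Tet2+/+ and at 7.16, 9.12 and 10.7 TPM in Tet2-/- (log2 fold change -0.82 ± 0.21 SE, edgeR unadjusted p = 0.00811, adjusted p = 0.748). DESeq2 gave it an adjusted p of 0.046, and it was the 1 SR transcript past the threshold of that tool, which called 811 of 66893 transcripts (1.21%) where edgeR called 0. Srsf11-218 (log2 fold change -0.82 ± 0.25 SE), Srsf11-213 (-0.65 ± 0.21 SE) and Srsf11-203 (-0.62 ± 0.23 SE) also had an unadjusted edgeR p under 0.05, and in each of these every Tet2-/- library was below every Tet2+/+ library. The fifth retained-intron transcript with at least 5% of the gene, Srsf11-211, did not share the pattern, at 9.63, 13.2 and 6.08 TPM against 8.58, 6.49 and 10.2 TPM. Lower TPM in every Tet2-/- library was not limited to retained introns, since the nonsense-mediated-decay transcript Srsf11-210 was at 12.1, 17.2 and 20.03 TPM in Tet2+/+ and at 9.68, 11.1 and 9.87 TPM in Tet2-/- (log2 fold change -0.58 ± 0.31 SE, edgeR unadjusted p = 0.109, adjusted p = 0.846).

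*Tra2a*, an SR-like protein that binds GA-rich enhancers and is the paralog of *Tra2b*, was at 34.1, 36.1 and 35.0 TPM in Tet2+/+ and 38.8, 37.5 and 40.0 TPM in Tet2-/-. The groups do not overlap and both are tight, and the fold was 1.14 (95% interval 0.914 to 1.43; log2 fold change 0.19 ± 0.14 SE, edgeR adjusted p = 0.762). The coding transcript Tra2a-201 was at 8.65, 15.1 and 10.5 TPM in Tet2+/+ and 18.6, 17.6 and 14.2 TPM in Tet2-/- (log2 fold change 0.66 ± 0.25 SE, edgeR unadjusted p = 0.0364, adjusted p = 0.846). It was the 1 SR transcript that was higher at an unadjusted p under 0.05, with s23 and s8 in overlap. Another coding transcript, Tra2a-204, scattered in both genotypes, at 6.17, 3.65 and 2.999 TPM against 4.37, 0.563 and 9.68 TPM (log2 fold change 0.22 ± 0.89 SE). The nonsense-mediated-decay transcript Tra2a-202 held 49.4%, 38.6% and 50.6% of the gene in Tet2+/+ and 32.0%, 43.2% and 33.8% in Tet2-/- (log2 ratio -0.59 ± 0.34 SE, limma adjusted p = 0.881, exact permutation p = 0.2). Its coding share ran the other way, at 44.6 ± 6.81% in Tet2+/+ and 55.7 ± 6.43% in Tet2-/- (SD, n = 3), and both shares overlap between genotypes.

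**Figure D2:**
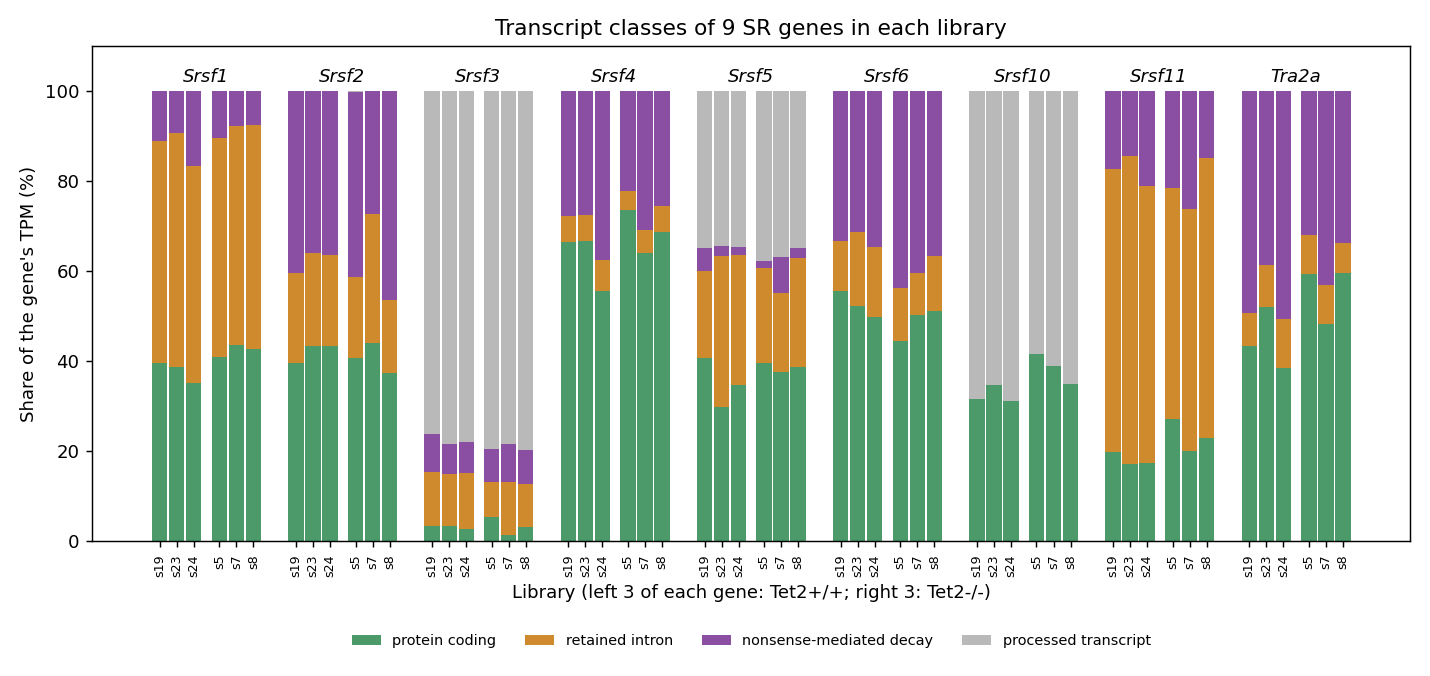
Share of each gene's TPM in 4 transcript classes, in percent, for the 9 SR genes with more than 1 transcript in the files, 1 bar per library with Tet2+/+ at the left and Tet2-/- at the right of each gene. *Srsf1* has retained-intron shares of 48.4% to 52.0% in all 6 bars, *Srsf3* and *Srsf10* lie mostly in processed transcripts by TPM, and *Srsf11* has the largest retained-intron part.

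Seen by class, the retained-intron share had a lower mean log2 ratio in Tet2-/- for 7 of the 8 SR genes that have the class, *Srsf2* being the exception, and none of the 8 passed the test. The sign for *Srsf1* turned without s23 (0.01), and that for *Srsf2* turned without s7, without s19 (-0.0089) and with shares of estimated counts (-0.03). The median log2 ratio was -0.30 over the 8 genes and -0.11 over all 5699 genes tested, of which 60.0% were lower. Limma called 1 of 5699 genes (0.0175%), at an unadjusted p under 0.05 there were 0 of 8 SR genes (5.53% of all genes lower, 1.91% higher), and the lowest p of the 8 was 0.105, for *Srsf11*. None of the 8 had groups that do not overlap, against 10.8% of all genes lower and 3.14% higher. Over the whole libraries, retained-intron transcripts held 8.63 ± 0.157% of TPM in Tet2+/+ and 8.97 ± 0.358% in Tet2-/- (SD, n = 3; exact permutation p = 0.3). This difference turned with the unit, to -0.658 percentage points with shares of estimated counts in place of TPM.

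**Figure D3:**
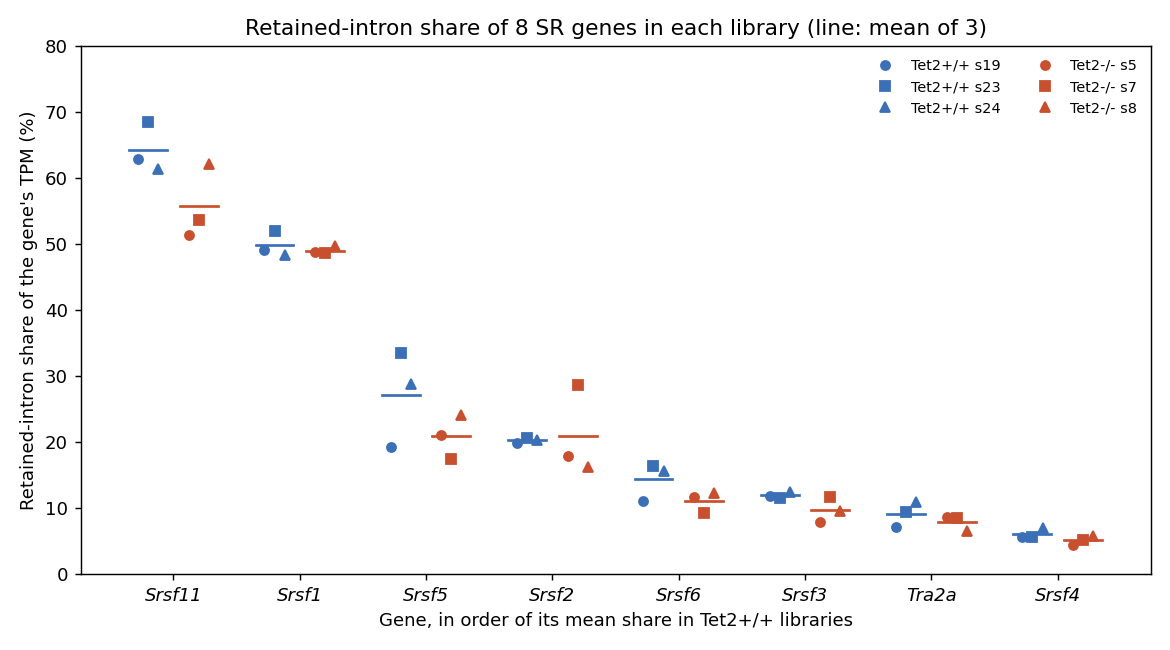
Retained-intron share of the gene's TPM in percent for the 8 SR genes with such transcripts, 1 point per library, blue for Tet2+/+ and red for Tet2-/-, with a line at each mean of 3. The genotypes overlap in all 8 genes, and library s7 stands apart for *Srsf2* at 28.6%.

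**Figure D4:**
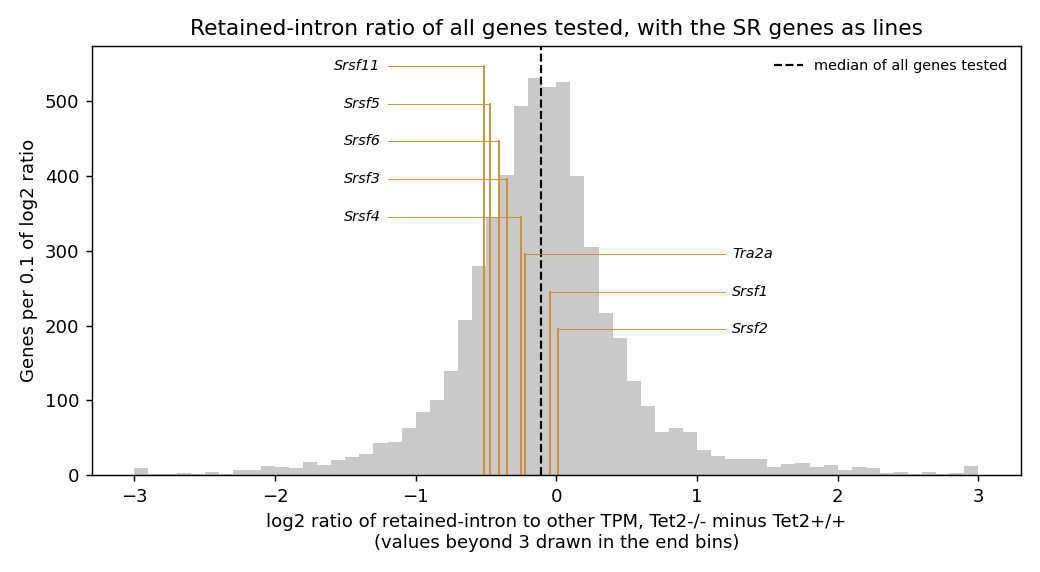
Histogram of the log2 ratio of retained-intron to other TPM, Tet2-/- minus Tet2+/+, for 5699 genes, with the 8 SR genes as orange lines and the median of all genes as a dashed line. The lines run from -0.51 for *Srsf11* to 0.01 for *Srsf2*.

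The nonsense-mediated-decay share had a lower log2 ratio for 3 of 8 SR genes and a higher one for 5, with a median of 0.06 against 0.02 over the 2597 genes tested, of which limma called 1 (0.0385%) and 0 of the 8. The 3 lower were *Srsf1*, *Srsf4* and *Tra2a*. Of the 5 higher, the sign held in every alternative for *Srsf3* and *Srsf6*, while it turned for *Srsf2* (-0.23 to 0.37) and *Srsf5* (-0.53 to 0.64) with a library left out and for *Srsf11* without transcripts under 500 bases (-0.68). The protein-coding share was higher for 6 of 9 genes and lower for *Srsf2*, *Srsf3* and *Srsf6*, of which *Srsf2* turned without s8 (0.02) and *Srsf3* without s7 (0.37), with a median log2 ratio of 0.28 against 0.05 over 8072 genes, of which limma called 4 (0.0496%) and 0 of the 9. In *Srsf1*, *Srsf10* and *Srsf11*, 3 of the 9, every Tet2-/- library was above every Tet2+/+ library, against 8.22% of all genes and 4.62% in the other direction. In the class of processed transcripts, which 3 of the SR genes have at a tested level, every Tet2-/- library was lower for *Srsf10* (5.92% of all genes) and higher for *Srsf5* (5.75%), and 0 of the 3 had an unadjusted limma p under 0.05 (2.65% of all genes lower, 3.11% higher). None of the SR genes had an unadjusted limma p under 0.05 in either class, where 2.27% and 3.12% of all genes were lower and higher in the nonsense-mediated-decay share and 2.69% and 4.08% in the protein-coding share.

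For single transcripts, 6 of the 70 tested had an unadjusted edgeR p under 0.05 and were lower in Tet2-/- (2.85% of all transcripts tested) and 1 was higher (2.43%), and 0 passed after adjustment. The 6 were the 4 of *Srsf11* named above, Srsf6-204 and Srsf1-204, and 5 of them carry retained introns. Of the 20 retained-intron transcripts of SR genes with a mean of at least 1 TPM, 5 were lower at an unadjusted p under 0.05 (2.45% of 7029 such transcripts, where 1.75% were higher) and 5 were lower in every Tet2-/- library (9.15%). The 5 without overlap are all of *Srsf11*, and 4 of them had such a p, so they share one gene level and are not 5 separate observations. Of all 61 SR transcripts with a mean of at least 1 TPM, 10 were lower in every Tet2-/- library (7.53% of all transcripts) and 1 was higher (5.36%).

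**Figure D5:**
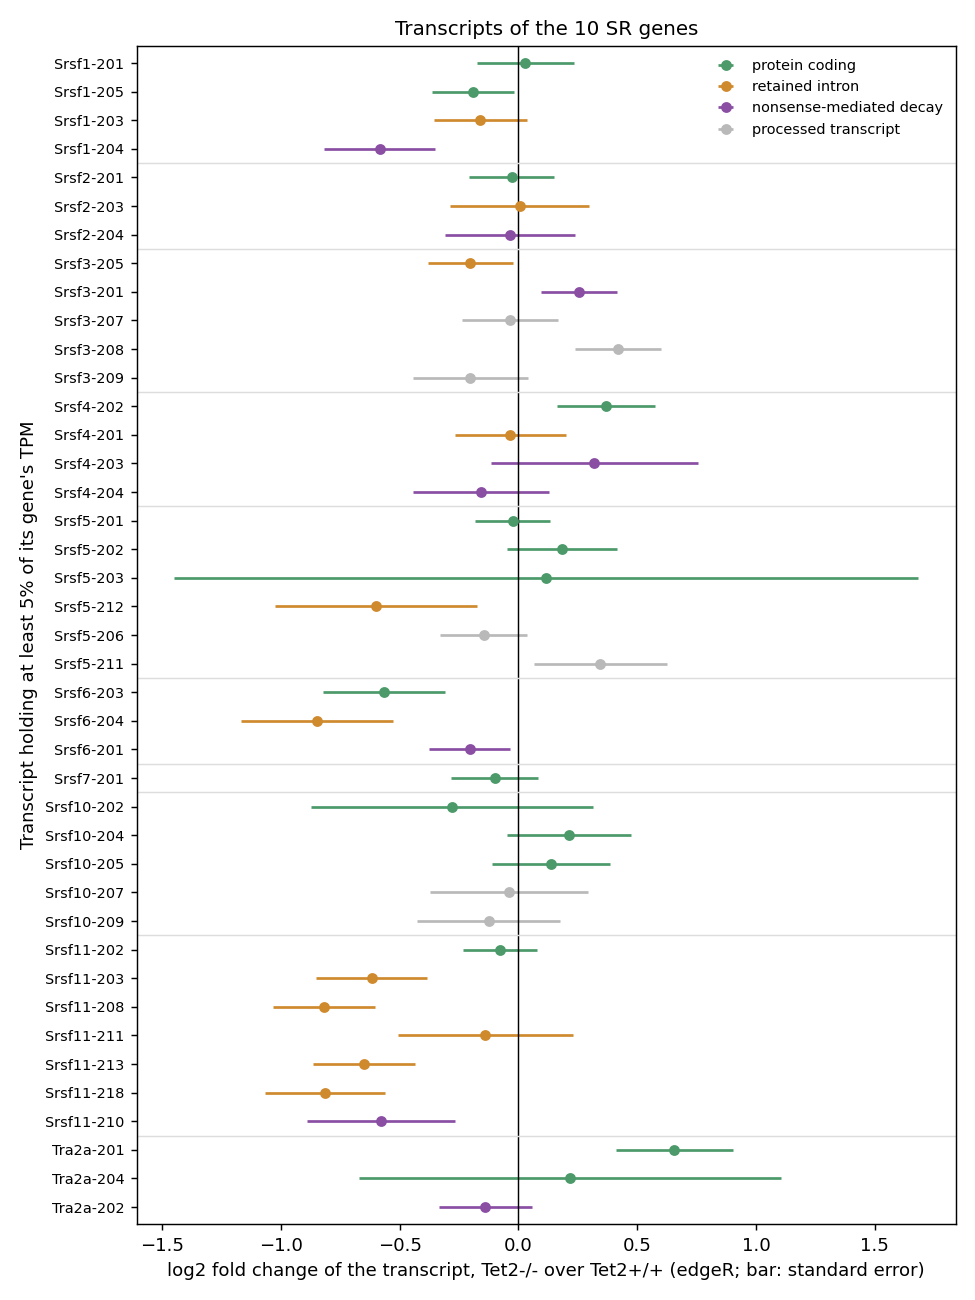
Log2 fold change of the 41 SR transcripts that held at least 5% of their gene's TPM, Tet2-/- over Tet2+/+, grouped by gene and colored by class, with bars for the standard error of the edgeR fit. Of *Srsf11*, 4 retained-intron transcripts at -0.62 to -0.82 and the nonsense-mediated-decay transcript Srsf11-210 at -0.58 lie below the coding Srsf11-202 at -0.08. Its other retained-intron transcript drawn, Srsf11-211, lies at -0.14 ± 0.37 (SE), and Tra2a-201 lies at 0.66.

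Whether transcripts changed relative to others of the same gene was tested with edgeR's diffSpliceDGE, which called 81 of 11219 genes (0.722%) and 0 of the 9 SR genes with more than 1 transcript. At an unadjusted p under 0.05 there were 8.66% of all genes and again 0 of the 9, and limma voom with diffSplice also called 0 of them. The lowest unadjusted p of the 9 was 0.265, for *Srsf11*, and the next 0.314, for *Srsf6*. These calls depended on single libraries. Without s23, *Srsf10* was called at an adjusted p of 0.000404 among 120 genes, and without s24, *Srsf1* was called at an adjusted p of 0.0241 among 101 genes.

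The premature stop codons were also followed across all transcripts that contain them, retained-intron ones included. That share was 46.0%, 52.0% and 50.6% of *Srsf6* TPM in Tet2+/+ and 56.7%, 51.2% and 49.1% in Tet2-/-. For *Srsf3* it was 12.7%, 10.4% and 10.3% against 9.81%, 13.0% and 10.3%, with a difference of -0.11 percentage points that was 1.91 with shares of estimated counts and -1.09 to 0.686 with a library left out, and for *Srsf4* 27.9%, 27.6% and 37.6% against 22.1%, 30.9% and 25.4%. In both genes the ranges overlap. For *Srsf11* the exon of Srsf11-210 was in 25.5%, 28.8% and 31.3% against 22.9%, 26.8% and 24.1%, and a second one, of Srsf11-212, in 25.2 ± 1.27% against 26.3 ± 3.60% (SD, n = 3). With shares of estimated counts the difference of the second turned to -4.55 percentage points and that of the first shrank from -3.96 to -1.15. The second also turned without s7, to -0.966. For *Srsf5* it was 6.04 ± 2.84% against 7.23 ± 6.36%, with 14.5% in s7, and the difference turned from 1.19 to -2.46 percentage points without s7. All 7 stop codons overlapped between genotypes, and the lowest exact permutation p was 0.2, for *Tra2a* and the exon of Srsf11-210.

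Among the partners of SR proteins, edgeR called 0 genes of each list at the gene level (0.0451% of all genes), and DESeq2 called 0 (1.74%). At an unadjusted edgeR p under 0.05 there was 1, the hnRNP gene *Pcbp1*, higher in Tet2-/-, where 3% of all genes were higher and 5.12% lower. Of 9 other SR and SR-like genes tested the median log2 fold change was -0.02, of 10 kinases and import factors -0.06, of 22 hnRNP genes, which often oppose SR proteins, 0.07, of 21 genes of U1 and U2 splice site recognition 0.02, and of 15 genes of nonsense-mediated decay and the exon junction complex 0.23, beside 0.0016 over all genes tested and -0.02 over the 10 SR genes. In the last list 12 of 15 were higher, against 11112 of all 22170 genes, and the 2 most abundant, *Eif4a3* and *Magoh*, both parts of the exon junction complex, had log2 fold changes of 0.20 ± 0.19 and 0.23 ± 0.19 (SE). The retained-intron ratio was lower for 5 of 7, 7 of 8, 12 of 16, 10 of 16 and 7 of 7 genes of the lists in this order, with 0 called, and medians between -0.23 and -0.16, beside -0.30 for the 8 SR genes. Of all 5699 genes tested, 60.0% were lower, with a median of -0.11 and 1 called. At an unadjusted limma p under 0.05, 1 list gene (*Sf3b1*) was lower, against 5.53% of all genes, and none was higher, against 1.91%.

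The scaffold proteins *Srrm2* and *Son* had log2 fold changes of -0.21 ± 0.19 and -0.09 ± 0.23 (SE). The SR protein kinases *Clk1* and *Clk4* kept much of their TPM in retained-intron transcripts, at 52.2% and 49.4% in Tet2+/+ and 51.2% and 45.6% in Tet2-/-. Among the repressors, *Hnrnph1* had 2035 ± 81.7 TPM in Tet2+/+ and 1806 ± 459 TPM in Tet2-/-, and *Hnrnpa2b1* had 699 ± 73.8 and 695 ± 53.2 TPM (SD, n = 3). The U1 protein *Snrnp70* was at 526 ± 63.8 and 452 ± 57.6 TPM, and the U2 protein *Sf3b6* at 144 ± 14.5 and 146 ± 16.7 TPM (SD, n = 3). Transcript usage passed the diffSpliceDGE threshold in 1 of 19 genes of U1 and U2 splice site recognition, 1 of 9 kinase and import genes and 0 of the 9, 20 and 15 genes tested in the other SR, hnRNP and decay lists, against 0.722% of all genes. The first was *Sf1*, which encodes the branch point binding protein (adjusted p = 1.41e-08), and the second the kinase gene *Dyrk1a* (adjusted p = 0.00782), while their gene levels had log2 fold changes of 0.0057 ± 0.15 and 0.0034 ± 0.14 (SE).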

How the data were processed

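RNA of sorted AML blasts was made into TruSeq libraries that do not mark strand and sequenced on a NextSeq 500. The authors quantified each library with Salmon 0.12.0, as named in the submitters' processing notes, against the Ensembl transcripts of GRCm38, and the files keep each library apart. The estimated counts were deposited as Salmon gives them, as reads per transcript that need not be whole and are not normalized between libraries. The deposited TPM values were scaled by Salmon per effective length and to one total for each library. The effective length, in bases, was also deposited. Salmon divides reads that fit several transcripts by likelihood, and the error of that division is not in the files used here.

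Here, transcripts were matched to genes and classes with GENCODE M21 in Python 3.11.15 with pandas 2.3.3. The 112 transcripts without a gene there, with between 0.0307% and 0.0416% of the counts, were left out. M21 follows a later Ensembl release than the one quantified, so a class may differ. Estimated counts were summed to genes, rounded, filtered to a sum of at least 10 library-size-normalized counts over the 6 libraries and, after TMM normalization, tested without covariates by edgeR (version 4.0.16, R 4.3.3) with its quasi-likelihood F test. Transcripts were tested alike, and their usage within genes with diffSpliceDGE. Standard errors were taken from the log2 fold change and the F statistic. CPM values are TMM-normalized. Class shares were tested with limma 3.58.1 on log2 of class TPM over other TPM of the gene, with a pseudocount of 0.1 on both sides, which understates the ratio where TPM is low, in genes with a mean of at least 1 TPM and a class mean of at least 0.1 TPM. Adjusted p are Benjamini-Hochberg values over all features tested, with a threshold of 0.05. For single values, a two-sided exact test by permutation was added. DESeq2, a tool the authors also used, was run here in version 1.42.0 as an alternative, and the other alternatives are given with their effect in the closing section. All tests were checked on simulated data.

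The members and gene lists were chosen with earlier results of these data known. Named are the 10 genes, their transcripts with at least 5% of the gene's TPM on average or past a test's threshold, and, of each list, the 2 genes highest in TPM and any past a threshold. The 3 genes closest to the mean profile of the SR genes are also named. The premature stop shares were added after the data were seen, and other names, Srsf11-212 among them, were chosen after their values were seen. Shared sequence was counted with BLAST+ 2.17.0 at 95% identity over at least 50% of a transcript. One marker gene is not reported here. Figures were drawn with matplotlib 3.10.9. Per the study, libraries of a genotype are samples from separate mice, no batch is given, and the biological coefficient of variation was 43.6%.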

Additional observations from a re-analysis of the deposited data

How the results depend on the processing

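No SR gene passed a gene-level test or a retained-intron, nonsense-mediated-decay or protein-coding share test under any alternative (none was run for the processed transcript share), and the lowest adjusted p were 0.334 for a level (*Srsf11*, DESeq2) and 0.637 for a retained-intron share (*Srsf11*). *Srsf11* (log2 fold change -0.60 to -0.35), *Srsf6* (-0.74 to -0.34), *Srsf5* (-0.33 to -0.026), *Srsf4* (0.14 to 0.42) and *Tra2a* (0.02 to 0.26) kept their direction in all 13 alternatives, and the retained-intron ratio of *Srsf3*, *Srsf4*, *Srsf5*, *Srsf6*, *Srsf11* and *Tra2a* stayed negative in all 12. No paired analysis was possible because the genotypes share no replicate numbers. With 3 libraries a side, differences under the spread between libraries were not detectable, and s24 had the fewest reads (13036643).

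Scaling by library size alone moved the median of all genes to -0.17 (TMM 0.0016, RLE 0.0086) and turned *Srsf2* (-0.17), *Srsf3* (-0.090) and *Srsf10* (-0.041). filterByExpr turned *Srsf2* (-0.0092), and length-scaled counts turned *Srsf10* (-0.012 with edgeR and -0.010 with DESeq2) and *Tet2* (-0.046 and -0.049). Leaving out each library in turn gave gene-level log2 fold changes of -0.14 to 0.069 for *Srsf1*, -0.12 to 0.13 for *Srsf2*, 0.016 to 0.12 for *Srsf3*, -0.22 to -0.067 for *Srsf5*, -0.18 to 0.028 for *Srsf7* and -0.0076 to 0.25 for *Srsf10*. Log2 ratios then ran from -0.089 to 0.014 for the *Srsf1* retained-intron share, from -0.31 to 0.21, -0.23 to 0.37 and -0.18 to 0.016 for the *Srsf2* retained-intron, nonsense-mediated-decay and protein-coding shares, from -0.58 to 0.37 for the *Srsf3* protein-coding share and from -0.53 to 0.64 for the *Srsf5* nonsense-mediated-decay share. With shares of estimated counts *Srsf2* turned (retained intron -0.026, nonsense-mediated decay -0.00077), without transcripts under 500 bases *Srsf11* (nonsense-mediated decay -0.68) and *Srsf3* (protein coding 0.081) turned, and with 3 classes in the denominator *Srsf3* (protein coding 0.019). The cause was not tested in any of these.

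Genes called at the gene level numbered 66 without the filter, 385 with DESeq2, 5 with length-scaled counts and 386 with DESeq2 on these, and 0 to 7 with a library left out (7, 2 and 1 without s19, s23 and s24, and 0 without s5, s7 or s8). DESeq2 called 811 transcripts. Usage calls were 53 with limma voom and diffSplice and 101 to 137 with a library left out. Retained-intron calls were 0 with a pseudocount of 1 or no filter and 0 to 4 with a library left out, with 4 without s23. Nonsense-mediated-decay calls were 0 with a pseudocount of 1, 3 with stricter filters, 10 with shares of estimated counts, 3 without short transcripts and 0 to 4 with a library left out, with 4 without s19. Protein-coding calls were 1 with a pseudocount of 1, 2 with shares of estimated counts, without short transcripts or with 3 classes, and 0 to 9 with a library left out, with 9 without s23. With shares of estimated counts the library-wide differences were -0.658 percentage points for retained introns and -0.00772 for nonsense-mediated decay. The premature stop difference moved to 1.91 percentage points for *Srsf3*, -4.55 for Srsf11-212 and -1.15 for Srsf11-210 with shares of estimated counts, an alternative chosen after seeing the data.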

Other observations

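The mean profile of the 10 SR genes across the 6 libraries, in log2 CPM centred on each gene, was 0.09, 0.05 and -0.06 in s19, s23 and s24 and -0.10, -0.03 and 0.05 in s5, s7 and s8. The root mean square distance of single SR genes from it ran from 0.0888 for *Srsf3* to 0.313 for *Srsf6*, with *Srsf4* (0.254) and *Srsf11* (0.208) next. Among 9165 other genes that averaged 10 CPM or more, the 3 closest to the mean profile were *Nudcd3*, *Ep400* and *Atg2b*, at 0.0332, 0.0395 and 0.0429. A mean of 10 genes is flat, and flat genes lie close to it.

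*Sf3b1*, chosen after its values were seen, encodes a U2 protein often mutated in myeloid neoplasms, and its retained-intron share was 35.0% in Tet2+/+ and 21.6% in Tet2-/- (log2 ratio -0.95 ± 0.33 SE, limma adjusted p = 0.662), while its gene level differed little (log2 fold change 0.02 ± 0.17 SE, edgeR adjusted p = 0.989). *Tra2b*, the paralog of *Tra2a* and also chosen after its values were seen, had a share of 10.5% and 7.52% (log2 ratio -0.54 ± 0.25 SE, limma adjusted p = 0.70).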
